A study of Mus musculus with 15 samples.

Results

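Primary mouse hepatocytes kept for 24 h as a monolayer were compared with freshly isolated hepatocytes, gene by gene. The comparison used the 3 arrays labelled TCD_24h and the 3 labelled t0, and every probe set to which the platform annotation gives 1 gene symbol: 34945 of 45101. After probe sets that followed the background of the arrays had been set aside, 22096 probe sets remained, and 12423 of 18193 genes were tested, each with 1 probe set. In the series, hepatocytes of male C57BL/6 mice were profiled on 15 Affymetrix arrays, 3 biological replicates for each of 5 groups. The t0 group was fresh cells taken as the baseline, TCD_4h and TCD_24h were cells that had lain in tissue culture dishes (TCDs) as a monolayer for 4 h or 24 h, and RWV_4h and RWV_24h were cells kept as aggregates in rotating wall vessels (RWVs). The labels give no genotype, agent, age or number of mice per replicate, and no coating or medium of the dishes. All values below are log2 signals relative to the median of the 3 fresh arrays of the same probe set, so they are changes and not levels, and a fresh value of 0 does not mean that a gene was silent. Errors after ± are standard errors of the fit with n = 3 arrays per group, and p-values are those of limma, adjusted by Benjamini-Hochberg over all 12423 genes. A gene is said to have risen or fallen, or is called, where that adjusted p lay below 0.05. The gene lists used below, and their members, were chosen with earlier results of these data known. Their shares set beside those of all genes are therefore descriptions and no test.

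Hepatocytes carry out most of the metabolic work of the liver: they make plasma proteins and bile acids, detoxify drugs and ammonia, and store and release glucose. These functions depend on a network of transcription factors, among them Hnf4a, Cebpa and the nuclear receptors, that sustain one another's expression. Hepatocytes taken from the liver and plated on a flat, stiff surface are known to spread, to form stress fibres and to lose much of this specialised expression, which is called dedifferentiation.

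The arrays had no depth in the sense of sequencing, and their number, 3 per group, limits the precision. The median of all probe sets lay between -0.066 and 0.077 on all 15 arrays. The 18 hybridisation control probe sets, RNA added at known amounts, had medians of -0.51 to -0.40 on the TCD_24h arrays and of -0.13 to 0.18 on the fresh arrays. RNA quality was read from the control probes at both ends of a transcript: the 3' value minus the 5' value for Actb was -0.45 to -0.43 in TCD_24h and -0.10 to 0.00 in t0, and for Gapdh it was -0.05 to -0.01 and -0.07 to 0.00. The part of these shifts in the results was not tested, beyond centring the arrays on the hybridisation controls. In replicate 2 of TCD_4h, which enters the estimate of the spread, the hybridisation controls stood at 1.08, and without this array 7393 genes were called in place of 6981.

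Of the genes that passed the background filter, most differed between the monolayer at 24 h and fresh cells. Of 12423 genes 6981 were called (56.2%), 4076 of them higher (32.8%) and 2905 lower (23.4%) in TCD_24h. At least 2-fold changes made up 2858 rises and 1906 falls, and at least 16-fold changes 257 and 214. The changes had a median of -0.01 and quartiles at -0.45 and 0.92. As deposited, the median of all probe sets lay near 0 on every array, so this median describes the scaling and not the cells. In 6834 of the 6981 called genes all 3 monolayer arrays lay on 1 side of all 3 fresh arrays, as they did in 9473 of the 12423 genes tested. The split between rises and falls depended on how the arrays were scaled. Rises made up 58.4% of the calls as deposited, 27.5% when the arrays were centred on 14 reference genes (which moved the median of all genes to -0.63) and 75.2% when they were centred on the hybridisation controls (median 0.45). The amount of RNA per cell is not known, and in such bulk samples fewer cells of a type and less RNA per cell cannot be told apart.

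**Figure D1:**
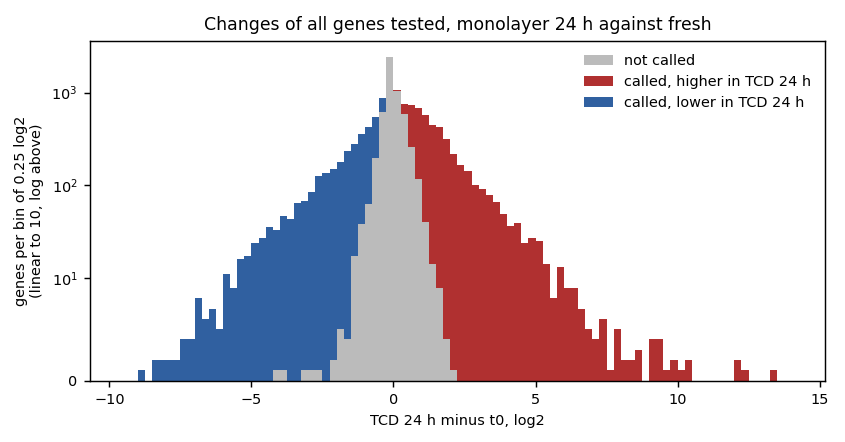
Number of genes (vertical axis, linear to 10 and logarithmic above) by their change between TCD 24 h and t0 (horizontal axis, log2, bins of 0.25). Grey bars are genes not called, red bars the 4076 genes called higher and blue bars the 2905 called lower, and the rises reach 13.46 while the falls end at -8.91.

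The labelled cell type could not be checked by level, since the values are changes, but its markers could be followed, and they changed by different amounts. Alb, the gene of serum albumin, read 0.00, 0.05 and -0.02 on the fresh arrays and -0.09, -0.05 and -0.03 after 24 h, a difference of -0.06 ± 0.075 that was not called (adjusted p = 0.498). Whether the Alb signal was near the ceiling of the array is not known, so this value gives no bound on the change of the mRNA. The other 8 of 9 tested hepatocyte markers fell (median over the 9, -0.51), and with the arrays centred on the hybridisation controls 4 of 9 were called lower (median -0.045). The losses of the secreted protein genes Ttr, Apoa1, Ahsg and Fgb were small (-0.35 to -0.51), and that of Apob, the protein of very low density lipoprotein, was -1.75 ± 0.148. Whether these signals were near the ceiling is not known either, so a small loss and a compressed signal cannot be told apart. Enzymes of the same list fell further. Cps1, which fixes ammonia in the urea cycle, went from 0.00, 0.01 and -0.09 to -3.01, -2.58 and -3.22 (-2.91 ± 0.346, adjusted p = 1.31e-05). Tat, which breaks down tyrosine, went from 0.00, 0.53 and -0.18 to -3.84, -2.61 and -4.14 (-3.65 ± 0.49, adjusted p = 3.72e-05). For both enzymes the groups lay far apart. Summed over the 9 markers the log2 values lay between -0.63 and 0.62 on the fresh arrays and between -12.83 and -12.03 on the monolayer arrays.

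Transcription factors of the liver fell as a group. Of 27 measured, 22 fell (81.5%, against 23.4% of all genes), 2 rose and 3 were not called, with a median of -2.39. Hnf4a, a nuclear receptor at the centre of the network, read 0.00, 0.27 and -0.21 in fresh cells and -1.93, -2.70 and -2.47 in the monolayer (-2.39 ± 0.228, adjusted p = 1.96e-06), and all 4 of its probe sets were called lower. Cebpa, a basic leucine zipper factor of the mature hepatocyte, read 0.00, 0.06 and -0.19 against -3.16, -3.69 and -3.28 (-3.33 ± 0.176, adjusted p = 1.51e-08). Neither gene had any overlap between the groups.

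The largest loss in the list was that of Nr0b2 (SHP), the repressor through which bile acids shut off their own synthesis. It read 0.00, 0.22 and -1.39 in fresh cells and -8.24, -9.12 and -8.16 in the monolayer (-8.12 ± 0.398, adjusted p = 8.53e-09). Next came the oestrogen receptor gene Esr1 (-5.96 ± 0.57), Ppara, the fatty acid sensor (-5.26 ± 0.507), and Onecut1 (-5.21 ± 0.662), a factor of liver and bile duct development. The xenobiotic receptors Nr1i3 (CAR, -4.66) and Nr1i2 (PXR, -4.43) and the bile acid receptor Nr1h4 (FXR, -4.31) fell by similar amounts, and these 3 are named because of their role, after their values had been seen. The losses differed in time. Hnf4a had read -0.02, -0.13 and 0.24 after 4 h and so changed by -2.40 between 4 h and 24 h (adjusted p = 2.7e-06), whereas Cebpa was already at -1.52, -1.47 and -1.09 after 4 h.

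The 2 factors that rose, also named for being so few, were Gata6 (2.82), a factor of endoderm development, and Nr3c1 (0.89), the glucocorticoid receptor. Foxa1, Gata4 and Onecut2 were not called (-0.69, -0.11 and -0.10). In the aggregates at 24 h 13 of the 27 factors were higher than in the monolayer and 0 lower, where 8.36% of all genes were higher and 6.86% lower in RWV_24h. Hnf4a stood 1.37 and Cebpa 1.37 above the monolayer (adjusted p = 0.0015 and 0.000276). The list's median relative to fresh cells was -1.65 in RWV_24h, -2.39 in TCD_24h and -0.65 in TCD_4h, groups that share the same fresh arrays.

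**Figure D2:**
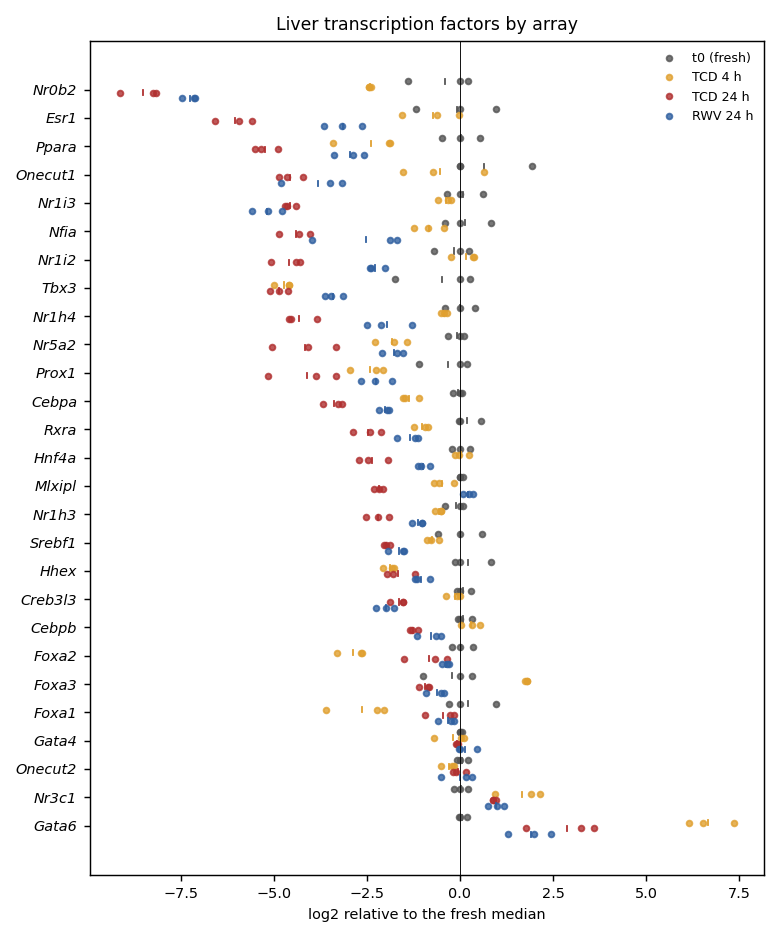
Log2 values relative to the fresh median (horizontal axis) of the 27 liver transcription factors measured, ordered by their change; each point is 1 array, 3 per group, and short bars are group means. The red points (TCD 24 h) of Nr0b2 lie near -8, most factors lie to the left of the grey fresh points, and Gata6 and Nr3c1 lie to their right.

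Genes of bile acid synthesis and transport fell in 21 of 24 cases, with a median of -2.89. Cyp7a1, the rate-limiting enzyme of bile acid synthesis, read 0.00, 1.11 and -0.56 in fresh cells and -7.95, -7.94 and -7.99 in the monolayer (-8.14 ± 0.505, adjusted p = 5.26e-08). The 3 monolayer values lay within 0.05 of one another, while the fresh values spread over more than 1 log2 unit. Cyp8b1, which sets the share of cholic acid, fell by 6.30 ± 0.49 and Baat, which joins bile acids to taurine or glycine, by 6.04 ± 0.214. Abcg5, a subunit of the transporter that moves sterols into bile, fell by 7.30 ± 0.896, with 1 monolayer array at -5.26 and the others at -7.93 and -8.21. The importer Slc10a1 (-3.66) and the bile salt pump Abcb11 (-3.92) fell as well. The 1 member that rose was Abcc4 (1.88), an exporter on the blood side of the cell, and the other exporters of that side, Abcc3 and Slc51b, were not called (-0.02 and -0.03). Names in the last 2 sentences were chosen after the values had been seen. Baat was 4.43 higher in the aggregates than in the monolayer at 24 h (adjusted p = 1.4e-07) and Cyp8b1 3.14 higher (adjusted p = 0.001), whereas Cyp7a1 differed by -0.28 (adjusted p = 0.86). Whether the Cyp7a1 signal in culture was at the floor of the array is not known, so this value gives no bound on the difference.

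The listed enzymes of drug metabolism had no riser in either phase. Among all 54 tested genes whose symbol is Cyp with a number, listed or not, 3 rose and 38 fell. Of 33 cytochromes P450 and other phase I enzymes 26 fell and 0 rose (median -1.49), and of 30 conjugation enzymes all 30 fell (median -2.21). Cyp3a11, the main drug-oxidising P450 of the mouse liver, fell little, from -0.05, 0.00 and 0.07 to -0.57, -0.48 and -0.34 (-0.47 ± 0.11, adjusted p = 0.00251), and it lost its call when arrays were centred on the hybridisation controls. Whether its signal was near the ceiling of the array is not known. Fmo5, a flavin monooxygenase, read 0.00, 1.10 and -0.89 against -7.82, -4.45 and -7.70 (-6.73 ± 0.947, adjusted p = 5.5e-05). Its groups did not overlap, but the monolayer arrays spread over more than 3 log2 units. Cyp2u1 (-4.81 ± 0.241), Aox3, an aldehyde oxidase (-4.76 ± 0.257), and Cyp2j5 (-4.56 ± 0.149) followed. Among the conjugation enzymes the drug methyltransferase Tpmt fell by 4.30 ± 0.293, the glutathione transferases Gstm7 by 4.03 ± 0.256 and Gsta3 by 4.01 ± 0.416, and the sulfotransferase Sult1b1 by 3.70 ± 0.228. In RWV_24h 10 of the 30 conjugation enzymes were higher and 6 lower than in the monolayer.

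All 42 measured genes of the urea cycle and amino acid breakdown fell, with a median of -3.10 and a range of -5.92 to -0.39. Tdo2, which opens tryptophan breakdown, read -0.24, 0.00 and 0.03 in fresh cells and -6.64, -5.70 and -5.63 in the monolayer (-5.92 ± 0.304, adjusted p = 1.2e-08). Hal, which removes ammonia from histidine, read -0.36, 0.00 and 0.14 against -6.30, -5.26 and -5.70 (-5.68 ± 0.528, adjusted p = 1.59e-06). Kynu, further along the tryptophan pathway, and Amdhd1, of histidine breakdown, fell by 5.45 ± 0.284 and 5.15 ± 0.581. After 4 h the Tdo2 arrays had read -0.61, -0.88 and -0.40, and the change from 4 h to 24 h was -5.36 (adjusted p = 4.9e-08). In the aggregates 8 of these genes were higher and 9 lower than in the monolayer, and the median against fresh cells was -3.02.

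Genes that make and release glucose fell in 16 of 21 cases (median -1.48). Pck1, which commits carbon to gluconeogenesis, read 0.84, -0.49 and 0.00 in fresh cells and -6.32, -6.57 and -7.10 in the monolayer (-6.78 ± 0.347, adjusted p = 1.19e-08). G6pc, which frees glucose, read 0.04, 0.00 and -0.35 against -5.43, -6.42 and -6.34 (-5.96 ± 0.44, adjusted p = 2.22e-07). Both genes were at least 5 log2 units below the lowest fresh array. The glycogen synthase gene Gys2 fell by 3.94 ± 0.288 and Ppp1r3c, which targets a phosphatase to glycogen, by 4.35 ± 0.645. The 3 risers, named for being few, were the lactate and pyruvate carrier Slc16a1 (1.85), the branching enzyme Gbe1 (1.04) and Pgm1 (0.72). In the aggregates 12 of the 21 genes were higher and 3 lower than in the monolayer: Pck1 differed by -4.26 (adjusted p = 9.1e-06) and Gys2 by 2.31 (adjusted p = 0.00023).

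Fatty acid oxidation and ketone synthesis fell in 26 of 29 genes (median -2.13). Bdh1, which makes the ketone body hydroxybutyrate, read 0.00, -1.36 and 0.28 in fresh cells and -7.01, -7.16 and -6.43 in the monolayer (-6.50 ± 0.964, adjusted p = 8.42e-05). Decr1, needed for unsaturated fatty acids, fell by 5.42 ± 0.514 and the thioesterase Acot1 by 4.18 ± 0.801. Pdk4, which holds back the entry of pyruvate into the citric acid cycle, rose, from 0.00, 1.12 and -0.18 to 3.55, 4.21 and 4.35 (3.72 ± 0.355, adjusted p = 1.97e-06), and so did Acadm (0.35). Lipid synthesis was mixed. Of 25 genes for fatty acids and triglycerides (median -0.52, and -0.30 with probe sets averaged per gene) 13 fell, with Thrsp, a lipogenic regulator, at -4.15 ± 0.402 and Plin5 at -2.64 ± 0.459, and 5 rose, with the desaturase gene Scd2 at 3.58 ± 0.383 and the lipid droplet gene Cidec at 3.46 ± 0.496. Of 20 cholesterol synthesis genes 7 fell and 2 rose, and their median of -0.40 turned to 0.06 with the arrays centred on the hybridisation controls. Sc5d fell by 4.12 ± 0.525, a call lost with the probe set chosen by its SD over the other 9 arrays, and Lss changed by -2.09 ± 0.491 and Ebp by -1.70 ± 0.119, and Srebf2, the regulator of the pathway, rose by 1.69 ± 0.499 but lost its call in 3 alternatives. Genes of the respiratory chain and citric acid cycle fell in 33 of 38 cases, by small amounts (median -0.78), and with the arrays centred on the hybridisation controls 7 of 38 were called lower. Fh1, fumarase, read 0.00, 0.02 and -0.29 against -1.56, -1.51 and -1.68 (-1.49 ± 0.104, adjusted p = 1.36e-07), and Idh3a (-2.38 ± 0.382), Ndufs1 (-1.39 ± 0.115) and Sdha (-1.38 ± 0.123) moved with it.

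Hepatocytes near the portal vein and near the central vein divide their work, which is called zonation, and genes of both zones fell; the arrays hold no position. Of 16 pericentral genes 14 fell and 0 rose (median -1.79), and of 18 periportal genes 15 fell and 2 rose (median -2.42). The glutamate transporter Slc1a2, a pericentral gene, read 0.05, 0.00 and -1.08 in fresh cells and -7.45, -6.64 and -7.33 in the monolayer (-6.80 ± 0.372, adjusted p = 1.95e-08). Tbx3, a pericentral transcription factor, was already at -4.59, -5.00 and -4.58 after 4 h and at -4.63, -4.86 and -5.10 after 24 h, a difference between the times of -0.14 (adjusted p = 0.77). On the periportal side Aldh1b1 fell by 5.92 ± 0.259 beside Pck1 and Hal. The lists share genes with those of the preceding paragraphs, and no test compared one side with the other.

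Genes of secreted proteins fell in most cases. Of 29 plasma proteins and apolipoproteins 25 fell, with a median of -0.87, and of 33 coagulation and complement genes 32 fell, with a median of -1.46. Serpind1, heparin cofactor II, read 0.17, -0.12 and 0.00 in fresh cells and -4.56, -4.21 and -4.05 in the monolayer (-4.29 ± 0.202, adjusted p = 6.46e-09). Klkb1, plasma prekallikrein, fell by 4.14 ± 0.209, Mbl1, a lectin of the complement system, by 3.15 ± 0.205, whereas Apoa5, which controls plasma triglycerides, changed by -4.16 ± 0.391 and Serpina6, the carrier of corticosteroids, by -2.79 ± 0.352. The 3 secreted proteins or surface proteins of both lists that rose were Serpina7, the thyroxine carrier (3.84 ± 0.6), Apoa4 (3.32 ± 0.523) and F3, tissue factor, which starts coagulation. F3 read 0.85, -1.39 and 0.00 in fresh cells, 5.01, 4.29 and 5.55 after 4 h and 3.18, 3.23 and 3.11 after 24 h (3.36 ± 0.556, adjusted p = 0.000208). With the arrays centred on the hybridisation controls, 10 of the 29 plasma proteins and 17 of the 33 coagulation genes were called lower, and 2 and 1 higher.

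Acute phase genes moved both ways, as did genes at large. Of 24 measured, 7 rose (29.2%) and 8 fell (33.3%), beside 32.8% and 23.4% of all genes. Their median of -0.13 became 0.33 with the arrays centred on the hybridisation controls. Cd14, a receptor for bacterial lipopolysaccharide, read 0.49, 0.00 and -0.18 in fresh cells and 8.58, 9.32 and 9.53 in the monolayer (9.05 ± 0.29, adjusted p = 3.86e-10). Lcn2, an iron-sequestering protein, rose by 3.54 ± 0.446. Socs3, the feedback inhibitor of interleukin-6 signalling, read 0.49, -1.52 and 0.00 against -8.35, -8.10 and -8.39 (-7.94 ± 0.519, adjusted p = 7.92e-08), with all 3 of its probe sets called lower, and Saa4 fell by 5.48 ± 0.672.

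Endocrine genes of the hepatocyte fell in 15 of 29 cases and rose in 4 (median -0.89). Klb, the co-receptor of the endocrine fibroblast growth factors, read -0.33, 0.00 and 0.26 in fresh cells and -5.73, -5.84 and -4.83 in the monolayer (-5.44 ± 0.361, adjusted p = 8.89e-08). The receptor gene Egfr fell by 4.26 ± 0.438, Igfals, which holds IGF in the plasma, by 3.94 ± 0.184, and Irs1, which relays insulin signals, by 3.79 ± 0.578. Irs1 had read -4.59, -6.90 and -4.41 after 4 h.

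The 12 largest rises of the comparison were those of Tmsb10, Sprr1a, Anxa2, Lgals3, Vim, Lce1d, S100a6, Cd68, Cpe, Cldn4, Ccn2 and Nupr1. Tmsb10, a small protein that binds actin monomers, read 0.08, -0.01 and 0.00 in fresh cells, 10.46, 9.61 and 10.19 after 4 h and 13.45, 13.44 and 13.57 after 24 h (13.46 ± 0.337, adjusted p = 6.57e-11). Only 3 of its 5 probe sets were called, and without probe sets of shared sequence it read -0.18 (adjusted p = 0.157), so its size is uncertain. Anxa2, a membrane-binding annexin, read -0.68, 0.22 and 0.00 in fresh cells and between 11.99 and 12.08 on the monolayer arrays (12.18 ± 0.306, adjusted p = 6.57e-11), with both of its probe sets called. Lgals3, the lectin galectin-3, read -0.01, 0.00 and 0.02 against 11.86, 11.78 and 12.44 (12.02 ± 0.685, adjusted p = 2.64e-08). In these 3 genes the lowest monolayer array lay more than 11 log2 units above the highest fresh array.

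The intermediate filament gene Vim, typical of cells that spread and migrate, read 0.00, -0.60 and 0.14 in fresh cells, 5.19, 2.55 and 4.42 after 4 h and 10.34, 10.23 and 10.40 after 24 h (10.48 ± 0.571, adjusted p = 1.94e-08). Genes of the outer layers of skin were among the largest rises: Sprr1a, a cornified envelope protein, read -0.05, 0.01 and 0.00 against 12.30, 12.53 and 12.51 (12.46 ± 0.402), and Lce1d, another protein of that envelope, -0.01, 0.00 and 0.85 against 9.56, 11.26 and 10.87 (10.28 ± 0.672). The calcium-binding protein gene S100a6 rose by 10.03 ± 0.913, Cd68, a lysosomal membrane protein, by 9.99 ± 0.156, Cpe, a carboxypeptidase of secretory granules, by 9.76 ± 0.288 and the tight junction gene Cldn4 by 9.67 ± 0.521. Ccn2, a matrix-associated growth factor, read 0.00, 0.01 and 0.00 in fresh cells, 0.82, 0.16 and 3.55 after 4 h and 9.09, 9.49 and 9.86 after 24 h (9.47 ± 0.622, adjusted p = 8.15e-08). The last of the 12 was Nupr1, described below with the stress genes.

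The fresh level of these genes is not known. In Lgals3, Sprr1a, S100a6, Cpe, Cldn4 and Ccn2 the 3 fresh values followed the background of the arrays within 0.05, as did those of 299 of the 2858 genes that rose at least 2-fold (10.5%). Of the background probe sets themselves 91.6% met this description, but so did 9 of the 29 plasma protein genes, since any steady gene meets it after centring on its own fresh median. It therefore does not show that a gene was silent in fresh cells. Of the 1906 genes that fell at least 2-fold, 153 (8.03%) had monolayer values that followed the background in this way. The floor of the signal is not known.

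**Figure D3:**
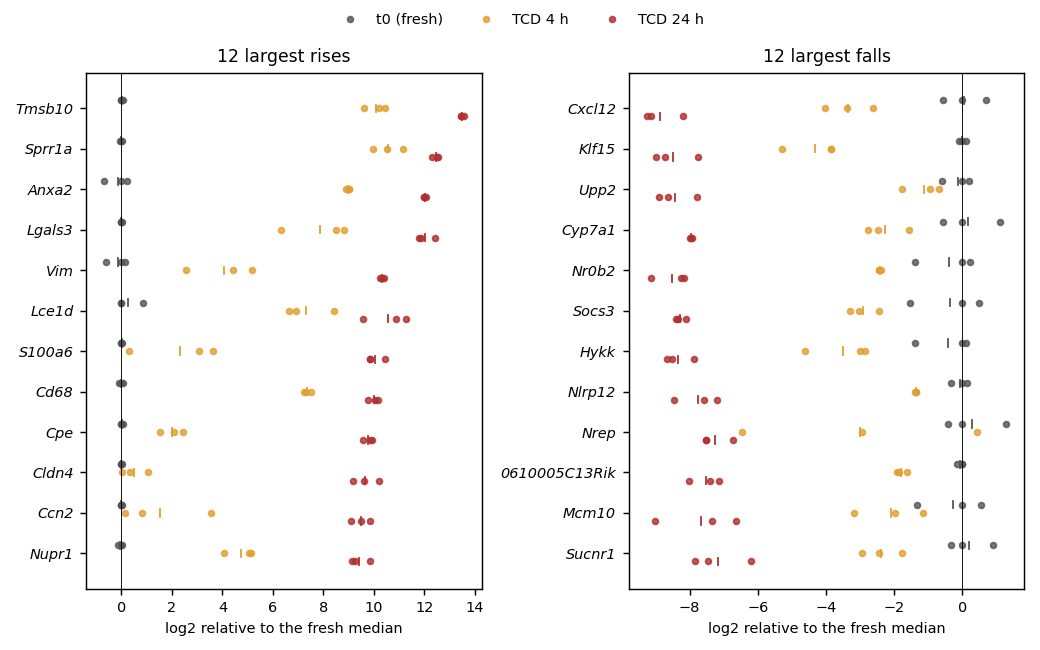
Log2 values relative to the fresh median (horizontal axes) of the 12 genes with the largest rises (left) and the 12 with the largest falls (right) in TCD 24 h against t0; each point is 1 array, 3 per group, and short bars are group means. The red TCD 24 h points lie above 9 on the left and below -6 on the right, apart from all grey fresh points, and the TCD 4 h means of all 24 genes lie between those of the groups compared.

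The largest falls included genes from outside the classical liver functions. Cxcl12, the chemokine that holds blood stem cells and lymphocytes in place, read 0.00, 0.71 and -0.55 in fresh cells, -3.39, -2.61 and -4.04 after 4 h and -9.13, -8.19 and -9.26 after 24 h (-8.91 ± 0.684, adjusted p = 3.02e-07). Klf15, a fasting- and glucocorticoid-regulated factor, read 0.00, -0.08 and 0.10 against -7.75, -8.99 and -8.73 (-8.50 ± 0.437, adjusted p = 1.22e-08). The changes were -8.31 ± 0.418 for Upp2, a uridine phosphorylase, -7.93 ± 0.607 for Hykk, which breaks down hydroxylysine, -7.67 ± 0.491 for Nlrp12, an innate immune sensor, and -7.55 ± 1.51 for Nrep. They were -7.46 ± 0.256 for 0610005C13Rik, -7.40 ± 0.714 for Mcm10, of DNA replication, and -7.36 ± 0.447 for the succinate receptor Sucnr1. Nrep had 1 array of TCD_4h at 0.44 and another at -6.46, the widest spread among these 12, and Mcm10 lost its call without probe sets of shared sequence. The remaining members of the 12 were Cyp7a1, Nr0b2 and Socs3.

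The actin and tubulin cytoskeleton rose as a group. Of 41 measured genes 32 rose (78.0%, against 32.8% of all genes) and 2 fell, with a median of 2.17. Beside Tmsb10, the tubulin gene Tubb6 rose by 7.15 ± 0.574, the actin-binding Tagln2 by 6.91 ± 0.707 and the tropomyosin gene Tpm2 by 6.02 ± 0.324. Tpm2 read -0.13, 0.00 and 0.69 in fresh cells, 0.23, 0.69 and 0.91 after 4 h and 6.24, 5.80 and 6.59 after 24 h, so that its rise came after 4 h (5.60, adjusted p = 5.5e-08). Tubb6 in contrast was at 5.80, 5.57 and 5.72 after 4 h already. Actb, the main cytoplasmic actin, rose by 0.95 ± 0.105 (adjusted p = 6.93e-06), from 0.00, 0.37 and -0.04 to 1.04, 1.06 and 1.07. The 2 genes that fell were Rdx (-1.03) and Tagln (-0.68), and Acta2, the smooth muscle actin of myofibroblasts, was not called (0.02). Of the 12 intermediate filament genes measured 7 rose and 0 fell (median 0.99, but 0.49 with probe sets averaged per gene, 0.17 with the probe set chosen by its SD over the other 9 arrays and -0.023 without probe sets of shared sequence), with the hepatocyte keratin gene Krt18 at 3.15 ± 0.117, Krt19, a keratin of bile duct cells, at 4.24 ± 0.456 and the lamin gene Lmna at 3.23 ± 0.335. Without probe sets of shared sequence Lmna read -0.12 (adjusted p = 0.237), and its value is therefore uncertain.

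Serum response factor drives many actin genes by binding a short element of their promoters, the CArG box. Matches to it on both strands were found in the RefSeq promoter windows (250 bases before to 50 after a start, build GRCm38.p6) of 4 of 34 cytoskeleton genes that have a window, namely Acta1, Actg1, Vil1 and Cnn2, all of which rose. Of all 12795 windows of tested genes 1.36% hold a match, as do 1.55% of those of genes that rose at least 2-fold and 1.32% of those that fell as much. The windows of the 2 carriers with the largest rises are shown with the match in capitals, since the muscle actin gene Acta1 (5.36) and the cytoplasmic actin gene Actg1 (1.54) carry it at similar places, starting at positions -73 and -90 from the start of transcription. Acta1 lies on the minus strand at chr8:123894726-123895025 and Actg1 on the minus strand at chr11:120348446-120348745.
Acta1: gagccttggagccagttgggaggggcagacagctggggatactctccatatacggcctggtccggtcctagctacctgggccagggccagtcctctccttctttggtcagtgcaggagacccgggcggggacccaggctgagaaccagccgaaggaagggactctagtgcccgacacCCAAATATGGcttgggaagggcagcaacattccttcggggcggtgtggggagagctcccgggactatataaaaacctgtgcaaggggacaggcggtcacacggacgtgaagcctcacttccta
Actg1: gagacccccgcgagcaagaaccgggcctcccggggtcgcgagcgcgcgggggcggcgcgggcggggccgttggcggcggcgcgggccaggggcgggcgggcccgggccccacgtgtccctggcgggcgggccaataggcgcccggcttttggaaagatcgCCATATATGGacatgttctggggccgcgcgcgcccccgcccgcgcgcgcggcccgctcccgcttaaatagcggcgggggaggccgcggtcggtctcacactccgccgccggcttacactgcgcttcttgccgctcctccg

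Genes that join the cell to its substrate rose with the cytoskeleton. Of 29 integrin and focal adhesion genes 21 rose and 2 fell (median 1.78, and 1.10 with probe sets averaged per gene). Pdlim7, which links actin to kinases, read 0.00, 0.01 and -0.08 in fresh cells and 6.83, 7.19 and 7.69 in the monolayer (7.26 ± 0.488, adjusted p = 1e-07). The adhesion protein gene Tes rose by 6.94 ± 0.481, the laminin-binding integrin gene Itga6 by 5.43 ± 0.405 and the kinase gene Src by 4.53 ± 0.309. Tes was at 6.81, 6.80 and 6.77 after 4 h, close to its value at 24 h, while Pdlim7 was at 0.58, 0.09 and 1.19. The 2 genes that fell were Parva (-2.92) and Itga1 (-1.88). Targets of YAP, SRF and TGF-beta, pathways that respond to stretching and to matrix, rose in 12 of 26 cases and fell in 4 (median 1.06, and 0.55 with probe sets averaged per gene). With Ccn2 these were Ajuba (4.56 ± 0.854), Fhl2 (4.23 ± 0.307) and Ankrd1, which read -0.01, 0.00 and 0.03 in fresh cells, 0.03, 0.08 and 0.06 after 4 h and 3.50, 3.50 and 4.31 after 24 h (3.77 ± 0.168, adjusted p = 4.22e-09).

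Of 26 extracellular matrix genes 9 were higher (34.6%) and 5 lower (19.2%), near the 32.8% and 23.4% of all genes, and their median of 0.02 turned to -0.60 with the arrays centred on reference genes. Plod2, which modifies collagen for cross-linking, read -0.01, 0.00 and 0.04 in fresh cells, 0.07, 0.09 and 0.06 after 4 h and 6.75, 7.15 and 7.55 after 24 h (7.14 ± 0.41, adjusted p = 2.84e-08). Thbs1 rose by 4.72 ± 0.539 and the protease gene Adamts1 by 4.47 ± 0.222, whereas Lama3 fell by 3.77 ± 0.618. Cell junction genes moved both ways. Of 23 genes 11 rose (47.8%) and 7 fell (30.4%), beside 32.8% and 23.4% of all genes. Their median was 0.75, but 0.27 with probe sets averaged per gene and 0.15 without probe sets of shared sequence. The adhesion molecule Ceacam1 was at -3.90 ± 0.318, against Cldn4 at 9.67. The gap junction genes Gjb2 and Gjb1, which couple hepatocytes to one another, were at -3.16 ± 0.271 and -3.10 ± 0.213. In RWV_24h 17 of the 41 cytoskeleton genes, 9 of the 29 adhesion genes and 6 of the 26 YAP, SRF and TGF-beta targets were lower than in the monolayer, and 0, 2 and 0 higher.

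Genes of hypoxia and glycolysis rose in 25 of 31 cases and none was called lower (median 2.24; with the arrays centred on reference genes 23 rose and 3 fell). Pkm, the pyruvate kinase of growing cells, read -0.13, 0.19 and 0.00 in fresh cells, 6.22, 5.42 and 6.25 after 4 h and 9.29, 9.49 and 9.40 after 24 h (9.37 ± 0.298, adjusted p = 3.77e-10). Ndrg1, a hypoxia-induced stress gene, read -0.01, 0.00 and 4.26 against 10.06, 10.13 and 10.28 (8.74 ± 0.879, adjusted p = 3.1e-06), with fresh replicate 3 standing apart from the other fresh arrays. Pfkp, the platelet form of phosphofructokinase, rose by 7.95 ± 0.768, and its arrays had read 0.40, 0.31 and 1.39 after 4 h. Adm, the peptide adrenomedullin, read 9.24, 9.31 and 9.13 after 4 h and 7.64, 7.92 and 7.19 after 24 h, a difference of -1.64 that was not called (adjusted p = 0.11). The liver's own form Pklr, in the glucose list, fell by 1.25. The hypoxia factor gene Hif1a rose by 1.16 and its hydroxylase Egln3 by 4.45, named after their values were seen. In RWV_24h 17 of the 31 genes were lower than in the monolayer and 0 higher.

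Genes of the integrated stress response rose while chaperones of the endoplasmic reticulum fell. The integrated stress response acts through the factor ATF4 on amino acid uptake, serine synthesis and tRNA charging, while the unfolded protein response of the endoplasmic reticulum acts through ATF6 and XBP1 on its chaperones. Of 28 genes of the integrated stress response and serine synthesis 24 rose (85.7%, against 32.8% of all genes) and 1 fell, with a median of 2.73. Of 21 endoplasmic reticulum chaperones and their regulators 17 fell (81.0%, against 23.4%) and 0 rose, with a median of -1.48. These counts changed to 23 and 20 with the arrays centred on reference genes and to 26 and 12 with the hybridisation controls. Fresh replicate 3 was low over the chaperones, with a sum of -15.74 against 3.71 and 2.96 on the other fresh arrays. Without it 19 chaperones fell (median -1.86), and without fresh replicate 1 the falls were 14 (median -1.31).

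**Figure D4:**
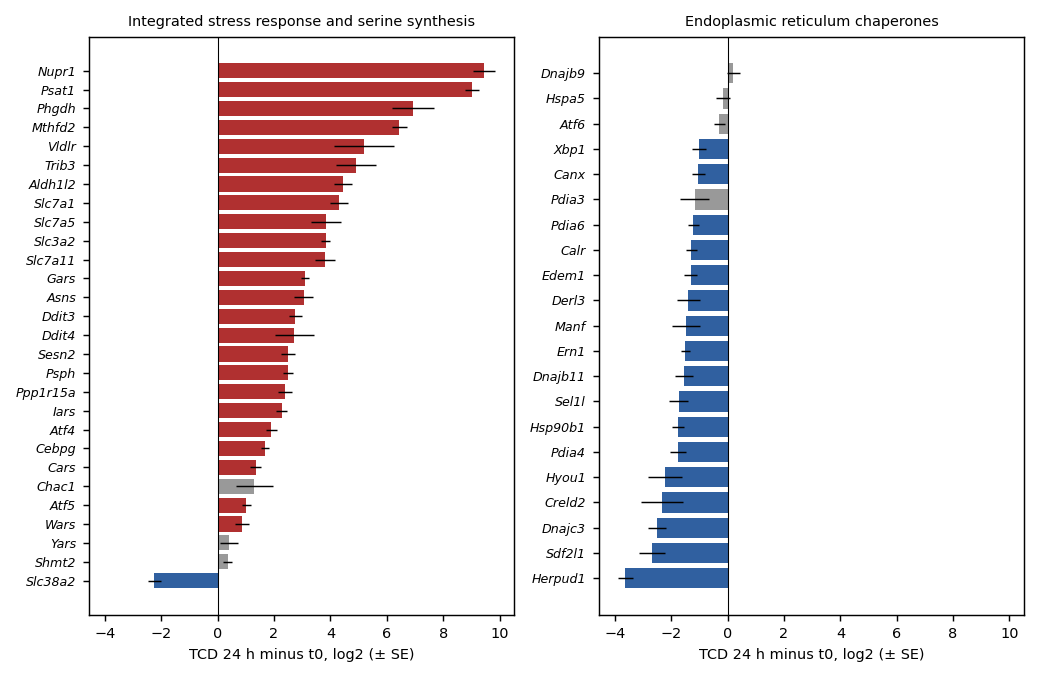
Change between TCD 24 h and t0 (horizontal axes, log2, bars start at 0, error bars are standard errors, n = 3 arrays per group) of the 28 genes of the integrated stress response and serine synthesis (left) and the 21 chaperones and regulators of the endoplasmic reticulum (right). Red bars are called higher, blue called lower and grey not called; 24 bars on the left are red and 17 on the right are blue.

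Nupr1, a small chromatin-associated stress protein, read 0.02, -0.13 and 0.00 in fresh cells, 5.13, 4.08 and 5.04 after 4 h and 9.12, 9.86 and 9.27 after 24 h (9.45 ± 0.391, adjusted p = 2.81e-09). The 3 enzymes that lead carbon into serine and one-carbon units rose with it. Psat1 read -0.29, 0.00 and 0.04 against 8.99, 8.94 and 8.90 (9.03 ± 0.247, adjusted p = 1.45e-10). Phgdh, the first enzyme of serine synthesis, read 0.00, 0.00 and 0.07 against 7.37, 6.70 and 6.78 (6.93 ± 0.759, adjusted p = 6.36e-06), and the mitochondrial folate enzyme gene Mthfd2 0.00, 0.39 and -0.71 against 6.55, 6.40 and 6.05 (6.44 ± 0.268, adjusted p = 2.91e-09). In all 4 genes the groups were apart by more than 5 log2 units, and all probe sets were called. Atf4 itself rose by 1.90 and its targets Trib3 and Asns by 4.91 and 3.05, and the 1 member that fell was the amino acid transporter Slc38a2 (-2.25), named after their values were seen.

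Herpud1, which helps to clear misfolded proteins from the endoplasmic reticulum, read 0.00, 0.56 and -0.01 in fresh cells, -2.30, -2.31 and -1.75 after 4 h and -3.13, -3.84 and -3.36 after 24 h (-3.63 ± 0.267, adjusted p = 2.17e-07). Sdf2l1 fell by 2.68 ± 0.464, Dnajc3, the inhibitor of the kinase PERK, by 2.52 ± 0.32, and Creld2 changed by -2.35 ± 0.745. The fall of Creld2 rests on fewer arrays: fresh replicate 3 read -2.18 beside monolayer values of -3.31, -2.65 and -2.74, and the call was lost when single arrays were left out. The 4 members that were not called were Pdia3 (-1.17), Atf6 (-0.29), Dnajb9 (0.20) and Hspa5 (-0.16), the chaperone BiP. In RWV_24h 1 of the 21 chaperones was higher than in the monolayer and 0 lower, and the list's median against fresh cells was -1.10.

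Promoters of both groups hold the elements of these pathways. The ATF4-C/EBP element was searched as TGATGNAAT and the element of the unfolded protein response as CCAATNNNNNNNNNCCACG, both on both strands, and matches of any 2 of the 5 motifs searched overlapped in 1 window. The second element was present in 8 of the 18 chaperone genes that have a window (44.4% of their windows, against 0.125% of the 12795 windows of all tested genes), and in 0 of 24 integrated stress genes. Its 8 carriers were Dnajc3, Creld2, Hsp90b1, Derl3, Calr, Pdia6, Canx and Hspa5, of which the first 7 fell and Hspa5 was not called. The ATF4-C/EBP element was present in 3 of 24 integrated stress genes (10.7% of windows, against 0.477% for all tested genes), namely Nupr1, Gars and Iars, all of which rose, and in 0 of 18 chaperone genes. The lists were written from knowledge of these pathways and with earlier results of these data known. The elements therefore describe the lists, and a match shows no binding. By the share of windows, the element of the unfolded protein response was found in 0.439% of those of genes that fell at least 2-fold and in 0.0337% of those that rose as much. These were 9 of 2052 windows and 1 of 2971. The 9 include the 7 listed carriers that fell, so these shares largely restate the list.

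Among the called carriers of each element, the 2 with the largest changes are shown, 300 bases each from RefSeq on build GRCm38.p6, 5′ to 3′ on the gene's strand with the match in capitals. Nupr1 lies at chr7:126625421-126625720 (minus strand, match starting at position -111 from the start), the glycyl-tRNA synthetase gene Gars, which rose by 3.10, at chr6:55037751-55038050 (plus strand, position -31), Dnajc3 at chr14:118937682-118937981 (plus strand, position -105) and Creld2 at chr15:88819396-88819695 (plus strand, position -126).
Nupr1: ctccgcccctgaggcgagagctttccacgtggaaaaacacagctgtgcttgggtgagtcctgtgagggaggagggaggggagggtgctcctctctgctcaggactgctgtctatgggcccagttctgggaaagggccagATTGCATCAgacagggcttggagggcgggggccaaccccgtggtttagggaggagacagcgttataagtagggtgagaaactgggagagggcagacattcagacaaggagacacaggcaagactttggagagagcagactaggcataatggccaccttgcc
Gars: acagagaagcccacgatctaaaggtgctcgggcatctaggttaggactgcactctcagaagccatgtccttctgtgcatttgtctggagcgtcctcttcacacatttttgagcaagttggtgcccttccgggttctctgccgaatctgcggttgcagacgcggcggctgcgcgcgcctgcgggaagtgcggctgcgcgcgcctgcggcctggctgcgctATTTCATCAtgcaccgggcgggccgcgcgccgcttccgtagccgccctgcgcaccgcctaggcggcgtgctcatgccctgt
Dnajc3: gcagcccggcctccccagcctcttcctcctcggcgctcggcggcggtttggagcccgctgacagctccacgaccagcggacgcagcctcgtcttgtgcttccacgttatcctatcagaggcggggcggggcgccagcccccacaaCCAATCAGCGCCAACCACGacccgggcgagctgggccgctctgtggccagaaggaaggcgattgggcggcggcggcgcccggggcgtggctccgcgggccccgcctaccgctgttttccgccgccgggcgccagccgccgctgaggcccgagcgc
Creld2: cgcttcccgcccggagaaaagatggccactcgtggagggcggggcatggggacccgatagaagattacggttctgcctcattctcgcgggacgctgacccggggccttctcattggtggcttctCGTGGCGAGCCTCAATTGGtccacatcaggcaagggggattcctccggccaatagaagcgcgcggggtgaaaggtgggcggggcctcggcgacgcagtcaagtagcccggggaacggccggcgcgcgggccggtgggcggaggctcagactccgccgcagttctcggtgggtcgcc

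Other motifs were searched in the same windows. A match to the HNF4 element CAAAGTCCA was found in 1.27% of the windows of genes that fell at least 2-fold, in 0.303% of those that rose as much and in 0.539% of those of all tested genes. For the AP-1 site TGACTCA the shares were 4.24%, 4.58% and 4.09%. These are descriptions with no test.

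Genes of ribosome biogenesis and translation rose, while those of G1 entry and proliferation moved both ways. Of 32 genes of ribosome biogenesis and translation 30 rose (93.8%) and 0 fell, with a median of 1.65. Eif4e, which binds the cap of mRNA, read 0.00, 1.09 and -0.38 in fresh cells, 6.02, 6.57 and 6.54 after 4 h and 4.82, 4.84 and 4.84 after 24 h (4.59 ± 0.358, adjusted p = 3.51e-07), with 3 of its 4 probe sets called. Gar1 (3.21 ± 0.111), Nop56 (3.18 ± 0.238) and Nop58 (3.01 ± 0.196), which modify ribosomal RNA, rose alike. In the list of G1 entry and proliferation 13 of 25 genes rose and 3 fell (median 1.14). Mcm6, of the replication helicase, read 0.00, -2.58 and 0.09 against 3.83, 5.05 and 4.53 (5.30 ± 0.676, adjusted p = 2.39e-05), Mcm3 rose by 4.24 ± 0.466, and Cdkn2b, an inhibitor of G1 kinases, by 4.41 ± 0.514. Ccnd1, cyclin D1, fell, with fresh arrays at 1.39, -1.13 and 0.00 and monolayer arrays at -4.12, -4.56 and -4.37 (-4.44 ± 1.08, adjusted p = 0.00358). The mitotic genes Top2a (-0.05) and Aurka (0.18) were not called, and Cdk1 fell by 1.13.

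Targets of p53 rose in 14 of 22 cases and fell in 3 (median 1.67). The median was 0.97 with probe sets averaged per gene and 0.62 without probe sets of shared sequence, where 11 rose and 3 fell. Cdkn1a, the cell cycle inhibitor p21, read -1.01, 5.33 and 0.00 in fresh cells and 9.73, 9.86 and 9.64 in the monolayer (8.30 ± 1.15, adjusted p = 4.92e-05). Fresh replicate 2 stood more than 5 log2 units above the other fresh arrays, yet the groups did not overlap. Phlda3 read -0.01, 0.00 and 0.02 against 5.52, 5.78 and 6.37 (5.88 ± 0.178, adjusted p = 3.22e-10), Zmat3 rose by 4.03 ± 0.272 and Plk2 by 3.94 ± 0.258. The members that fell were Fas (-2.13), Sesn1 (-1.54) and Plk3 (-1.48).

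Oxidative stress genes moved both ways, with 12 of 31 higher (38.7%) and 9 lower (29.0%), not far from the 32.8% and 23.4% of all genes. Their median of 0.13 turned to -0.49 with the arrays centred on reference genes. Hmox1, which degrades haem, read 0.74, -0.17 and 0.00 in fresh cells, 7.11, 6.99 and 6.96 after 4 h and 5.29, 5.78 and 5.43 after 24 h (5.31 ± 0.341, adjusted p = 6.88e-08). The carbonyl reductase gene Cbr3 rose by 4.82 ± 0.539 and the exporter gene Abcc1 by 4.62 ± 0.36. The metallothionein gene Mt1 read -4.46 ± 0.346, but its 2 probe sets were called in opposite directions and the value is uncertain. Among 21 genes of the cytosolic heat shock response 8 rose (38.1%) and 1 fell (4.76%), beside the same shares of all genes (median 0.43, and -0.19 centred on reference genes). Hspb1 was at 3.91 ± 0.53, Hspa1a at 3.46 ± 0.864 and Hspa4 at 2.43 ± 0.207 against Dnaja1 at -2.11 ± 0.282.

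Proteasome genes moved both ways. Of 32 genes 16 rose and 4 fell (median 0.33, and -0.29 centred on reference genes, where 5 rose and 16 fell). The 4 that fell were Psmb8, Psmb9 and Psmb10, the catalytic subunits of the immunoproteasome, and Psme1, part of its activator. Psmb9 read 0.00, -0.91 and 0.17 against -3.19, -3.40 and -2.63 (-2.83 ± 0.31, adjusted p = 6.48e-06), and Psmb8 0.13, -0.14 and 0.00 against -2.70, -3.34 and -1.92 (-2.65 ± 0.285, adjusted p = 5.5e-06). Psme1 fell by 1.30 ± 0.174 and Psmb10 by 1.07, but with the hybridisation controls 2 of the 32 genes were called lower and Psme1 was not among them. Psmd11, of the regulatory particle, rose by 1.55 ± 0.263. Psmb8 and Psme1 were higher in the aggregates than in the monolayer, by 1.73 and 1.06 (adjusted p = 0.0014 for each). Lysosome and autophagy genes showed 10 rises (33.3%) and 7 falls (23.3%) among 30, close to the shares of all genes (median -0.03, which turned to 0.43 with the hybridisation controls), with the autophagy receptor gene Sqstm1 at 3.92 ± 0.286, Gla at 3.68 ± 0.34 and Ctsc at -2.27 ± 0.34. Map1lc3b read -3.11 ± 0.414, but 1 of its 4 probe sets was called higher.

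Immediate early genes, which answer first to stimulation, went both ways. Of 35 measured 16 rose (45.7%) and 10 fell (28.6%), beside 32.8% and 23.4% of all genes (median 0.09, and -0.53 centred on reference genes). Klf6 read 0.19, -0.23 and 0.00 in fresh cells, 8.25, 8.25 and 8.74 after 4 h and 8.46, 8.10 and 8.13 after 24 h (8.24 ± 0.203, adjusted p = 6.53e-11), with all 5 probe sets called. Klf4 rose by 6.69 ± 0.376, Ier3 by 5.95 ± 0.889 and the AP-1 subunit gene Fosl1 by 5.04 ± 0.405. Other members fell below fresh cells, among them Fos (-4.90), Nr4a1 (-3.98), Egr1 (-3.63) and Ier2 (-3.03), named after their values were seen. The values do not show how far the fresh cells themselves stood from the liver, for which no array was analysed here.

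Inflammatory genes moved both ways. Of 29 NF-kB targets and chemokines 11 rose (37.9%) and 8 fell (27.6%), not far from the 32.8% and 23.4% of all genes (median 0.28, and -0.34 centred on reference genes). TCD_24h replicate 3 stood apart, with a sum over the list of 13.60 against -7.95 and -9.97 on the other monolayer arrays, and without it 8 rose and 8 fell (median 0.026). Cxcl16 read 0.00, 0.00 and 0.02 in fresh cells and 5.26, 4.64 and 5.98 in the monolayer (5.29 ± 0.515, adjusted p = 2.36e-06), whereas the neutrophil chemokine gene Cxcl1 fell, from 0.27, -1.30 and 0.00 to -6.04, -6.35 and -4.47 (-5.28 ± 0.617, adjusted p = 1.12e-05), and Nfkbiz fell by 3.55 ± 0.472 but lost its call with the probe set chosen by its SD over the other 9 arrays. Of 30 interferon genes 6 rose and 6 fell (median 0.01, and -0.62 centred on reference genes), which is close to the share of falls among all genes and below that of rises. TCD_24h replicate 3 stood apart here too, with a sum of 20.92 against 0.53 and -4.84. Without it 5 rose and 8 fell (median -0.26). Fresh replicate 2 summed to -14.93 against 4.07 and 3.19 on the other fresh arrays. Isg20 rose by 3.81 ± 0.269, Rsad2 by 3.62 ± 1.05, Gbp2 by 3.02 ± 0.697 and Ifngr1, the receptor of interferon gamma, by 2.89 ± 0.263. Of 17 clock genes 5 fell (29.4%) and 2 rose (11.8%), beside 23.4% and 32.8% of all genes (median -0.64). The share of falls is thus not far from that of all genes. Hlf was at -4.74 ± 0.353, Clock at -1.63 ± 0.335, Per3 at -1.48 ± 0.448 and Nfil3 at 1.30 ± 0.46. Without fresh replicate 1 the list had 2 falls and 1 rise (median -0.30), without TCD_24h replicate 3 a median of -0.34, and with the hybridisation controls 2 falls and 3 rises (median -0.18). Nfil3 lost its call with the 6 compared arrays alone, with the reference genes and without any one of TCD_24h replicates 1, 2 and 3 or fresh replicates 1 and 3, and Per3 lost it with the 6 arrays, without fresh replicate 1 or 2 and with the hybridisation controls. Clock read 0.29 with another choice of probe set. The time of day at which the arrays' cells were collected is not in the labels, so that time in culture and time of day cannot be told apart for these genes.

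Genes of fetal liver and progenitor cells rose in 7 of 14 cases and fell in 1 (median 1.16). The median of the 14 genes was 0.41, 0.16 and 1.52 on the 3 monolayer arrays, and the median change was 0.72 without TCD_24h replicate 3, 0.51 with the probe set chosen by its SD over the other 9 arrays, 0.58 without probe sets of shared sequence and 0.026 over 17 genes with no background filter. Sox4 read 0.00, 0.01 and -0.04 in fresh cells, 0.06, 0.10 and 0.59 after 4 h and 7.92, 8.16 and 9.57 after 24 h (8.56 ± 0.447, adjusted p = 1.41e-08), with 4 of its 6 probe sets called. Ly6d rose by 4.81 ± 0.74 and Sox9, of bile duct and progenitor cells, by 4.65 ± 0.69, whose arrays had read 6.84, 8.07 and 6.49 after 4 h. The fetal plasma protein gene Afp rose by 1.58, and Igf2 (-0.03), Dlk1 (-0.05) and Gpc3 (0.03) were not called, these 4 being named after their values were seen. Aldh1a1 fell by 2.41 ± 0.148.

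Markers of other liver cells were checked beside these rises. Of 12 tested macrophage markers 1 rose (Cd68) and 0 fell (4 and 1 with the replicate block), and their summed log2 values lay between -3.95 and 3.71 on the fresh arrays and between 6.15 and 18.64 on the monolayer arrays. Without Cd68 the members ranged from -0.63 for Csf1r to 1.65 for C1qb, and the macrophage genes Adgre1, Clec4f and Vsig4 were at -0.11, -0.49 and -0.32. Of 8 stellate cell and fibroblast markers 1 rose, Reln (5.53 ± 0.42), and the fibroblast genes Col1a2, Dcn and Pdgfrb were at -0.08, -0.04 and -0.11, with summed values of -0.19 to 0.82 in fresh cells and 4.86 to 5.76 in the monolayer. Of 9 sinusoidal endothelial markers Stab2 rose by 1.51 ± 0.306, and Clec4g and Fcgr2b fell by 4.04 ± 0.788 and 2.46 ± 0.321, with sums of -0.93 to 3.69 against -5.45 to -2.86. The bile duct list stood apart, with 4 of 5 tested markers higher (Cldn4, Sox9, Krt19 and Epcam) and sums of -0.55 to 1.80 on the fresh arrays and of at least 17.39 on each monolayer array. Epcam rose by 1.32 ± 0.237 by 1 of its 2 probe sets, and the other probe set read -0.39 (adjusted p = 0.164). Of 3 lymphocyte, 2 neutrophil and 2 red blood cell markers 1 was called, Alas2, the first enzyme of haem synthesis in red cells (-2.32 ± 0.129), with Ltb (-0.25 ± 0.105) and Mpo (-0.15 ± 0.0816) not called. The part of a change in the share of bile duct or other cells in these results was not tested.

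**Figure D5:**
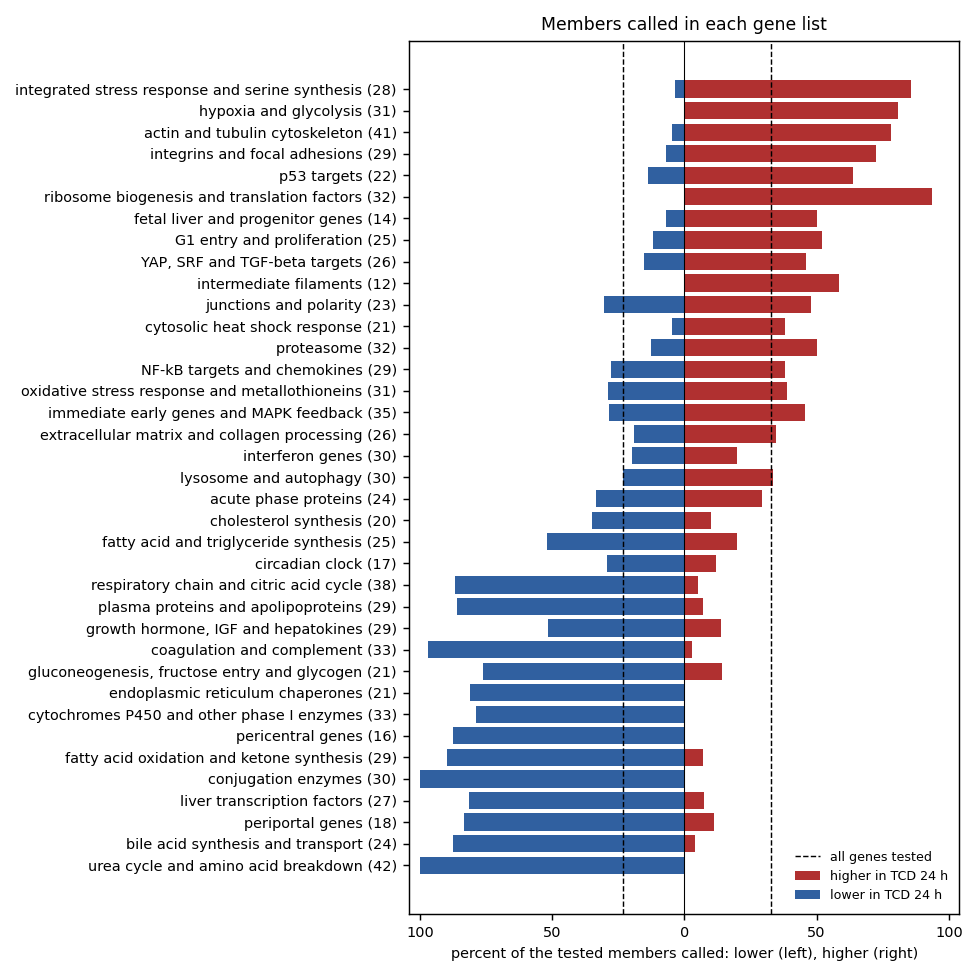
Percent of the tested members of each function list (numbers in parentheses) called higher (red, to the right) or lower (blue, to the left) in TCD 24 h against t0, ordered by the median change. Dashed lines mark the same shares over all 12423 genes tested, 32.8% higher and 23.4% lower. The lists of conjugation enzymes and of the urea cycle and amino acid breakdown reach 100% lower, and ribosome biogenesis reaches 93.8% higher.

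Among the genes named above that were called against fresh cells, differences from the aggregates at the same time were largest for Ccn2 (RWV_24h minus TCD_24h, -6.45 ± 0.622, adjusted p = 3.35e-05), Plod2 (-5.92, adjusted p = 2.3e-06) and Lce1d (-5.75 ± 0.672, adjusted p = 0.000139) on the lower side. On the upper side they were largest for Baat (4.43), Cbr3 (3.70, adjusted p = 0.00068) and Klf15 (3.47 ± 0.437, adjusted p = 0.000246). Vim was lower in the aggregates by 2.38 ± 0.571 (adjusted p = 0.0143), and Alb, Actb, Cyp3a11 and Cyp7a1 were not called (-0.09, -0.27, -0.15 and -0.28). These differences share the TCD_24h arrays with the comparison against fresh cells, so that they are no independent check of it.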

How the data were processed

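The table holds 45101 probe sets on 15 arrays as log2 values that the authors deposited, computed with GCRMA per the submitters' processing notes (version not given in the sources used here). The median of the 3 fresh arrays is 0 in 100% of probe sets, so values are relative to fresh cells and no level can be read from them. Groups come from the labels, which call the replicates biological; whether they were separate animals or isolations is not stated, and p-values measure the spread between these arrays.

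Probe sets that correlated above 0.8 with the arrays' median over the least variable share (0.2 of all) and had an SD below 0.5 were set aside as background. Each gene kept the probe set with the largest SD. A linear model over all 5 groups was fitted with limma 3.58.1 in R 4.3.3 and p-values were adjusted by Benjamini-Hochberg over 12423 genes, with calls below 0.05. limma was used in place of any test with a single gene's spread, since an exact permutation test of 3 against 3 arrays cannot go below 0.1. The procedure was tested on simulated data.

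The text names, each way, the 12 called genes that moved furthest with no overlap between groups and no probe set called the other way; from every list, at most 4 of those called, taken by size of change (or the gene with the smallest p if none was called); and 5 fixed genes; every other gene in the text (the few exceptions in a list, members not called, markers and carriers of a motif) was chosen after its values were seen. Members and lists were chosen with earlier results of these data known. Alternatives numbered 19 and concerned the filter, the choice of probe set, the centring, the model and left-out arrays; 3 of them were chosen after seeing the data. Of 10019 tested genes with a RefSeq promoter window (GRCm38.p6), 5 motifs were searched with Python 3.11.15.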

Additional observations from a re-analysis of the deposited data

Results flagged for a closer look

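Of 29 leading and fixed genes, 17 also differed between the aggregates and the monolayer at 24 h (RWV_24h minus TCD_24h, log2, limma with Benjamini-Hochberg adjustment, n = 3 arrays per group). Genes lower in the aggregates were the matrix-associated Ccn2 (-6.45), the skin envelope gene Lce1d (-5.75), Cldn4 (-4.31), Nupr1 (-4.02), S100a6 (-3.42), Cpe (-2.89), Vim (-2.38), Upp2 (-1.98), Tmsb10 (-1.41), Cd68 (-1.21) and Anxa2 (-0.98). Genes higher in the aggregates were Klf15 (3.47), Hykk (3.16), Cxcl12 (2.68), 0610005C13Rik (2.37), Hnf4a (1.37) and Cebpa (1.37). Adjusted p-values ran from 3.35e-05 for Ccn2 to 0.0495 for Anxa2. Both contrasts use the TCD_24h arrays, so an array that reads high or low there enters both.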

How the results depend on the processing

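With the replicate block 7166 genes were called in place of 6981 (4165 higher and 3001 lower) and all 173 named genes that had been called kept their calls. Same-numbered fresh and monolayer arrays correlated at 0.105, 0.0615 and 0.124 around their group means. Each fresh array correlated best with the monolayer array of its own number. The labels do not say whether equal numbers share an isolation, and the main fit did not use the numbers as pairs. Leaving out each replicate of the compared groups gave 6370 to 6720 calls. Testing every probe set gave 11604 calls among 22096 (6821 higher, 4783 lower, 7213 at least 2-fold). Centring on reference genes gave 2578 higher and 6793 lower, and on hybridisation controls 4358 higher and 1439 lower. Of the 173 named genes called, 159 kept their calls in every alternative that tested them. Values changed sign for Clock (0.29) and Epcam (-0.39) with the probe set chosen by its SD over the other 9 arrays, and for Lmna (-0.12) and Tmsb10 (-0.18) without probe sets of shared sequence; these take another probe set of the same gene. The number of arrays and an unknown floor and ceiling of the signal limit the size of any change.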

Other observations

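Gene families were also counted by the common start of their symbols, and those given here were chosen after their counts were seen; of their members, Utp20 and Pex11a are also in the lists above. Nuclear pore genes (Nup) rose in 17 of 18 cases and none fell (median 1.54), with Nup62 at 3.08 ± 0.346 (limma adjusted p = 7.9e-06). All 11 Utp genes, of ribosome assembly, rose (median 1.45), as did 21 of 30 Med genes, subunits of the transcriptional Mediator (median 1.12), and 10 of 14 Snhg genes, hosts of small nucleolar RNAs (median 1.32), with none lower in either family. Peroxisome assembly genes (Pex) fell in 11 of 14 cases (median -1.29), with Pex11g at -3.37 ± 0.232 (limma adjusted p = 1.21e-07). Of all genes 32.8% rose and 23.4% fell. The families were counted in the main fit only, and the part of the scaling in their counts was not tested.

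Among 2711 probe sets without a gene symbol that stood off the background, 187 were at least 2-fold higher and 201 at least 2-fold lower in TCD_24h than in t0.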
